A study of Mus musculus with 14 samples.

Results

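The genes examined were Tgfb1, Tgfbr1, Tgfbr2, Smad2, Smad3, Smad4, Smad7, Ski, Tgif1 and Nrros, a ligand of the TGF-beta pathway with its receptors, signal carriers, inhibitors and the anchor of its latent form. They were taken by symbol from the deposited table of 35735 genes, which held 10 of 10, and all 10 had enough reads to be among the 7605 genes tested. RNA was sequenced from microglia, the resident macrophages of the retina, sorted for Fcrls and CD11b on their surface and for the absence of Ly6c. Each of the 14 libraries came from 1 retina of a mouse aged 12 weeks, and a retina gave between 100 and 600 cells. The 4 groups were APOE3 sham (genotype APOE E3/E3 with a sham injection, n = 4), APOE3 microbead (the same genotype with a microbead injection, n = 3), APOE4 sham (genotype APOE E4/E4 with a sham injection, n = 4) and APOE4 microbead (n = 3). Microbeads placed in the eye obstruct the outflow of fluid and raise eye pressure, which serves as a model of glaucoma. APOE E3 and APOE E4 are human alleles and every group carries one of them. How the alleles were introduced and the time from injection to collection are not given in the sources used here. The labels do not say whether the retinas came from separate animals, so p-values measure the spread between these samples only.

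TGF-beta is secreted in a latent form that has to be anchored and activated before it can bind. On microglia and other myeloid cells the anchor is the product of Nrros, and integrins or proteases release the active ligand. The ligand binds the type II receptor TGFBR2, which recruits and phosphorylates the type I receptor TGFBR1. TGFBR1 then phosphorylates SMAD2 and SMAD3, which enter the nucleus with SMAD4, while SMAD7, SKI and TGIF1 restrain the signal at the receptor or on DNA. In the brain and retina this pathway is known for keeping microglia in their resting state, with high P2ry12, Tmem119 and Sall1.

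The promoters of both receptors and of Eng, which encodes the coreceptor endoglin, are shown. Among the genes searched, which left out pseudogenes and Gm or Rik symbols, Eng ran closest in level to Tgfbr1 over the libraries. Each is the stretch of 250 bases before the RefSeq start of the gene on GRCm38.p6, written along the strand of the gene. The window of Tgfbr1 is chr4:47352972-47353221 on the plus strand, that of Tgfbr2 is chr9:116175364-116175613 on the minus strand and that of Eng is chr2:32646345-32646594 on the plus strand. Capitals mark the box CAGAC or its reverse complement GTCTG, the short sequence bound by SMAD proteins, and the GC box GGGCGG or its reverse complement CCGCCC, bound by SP1 and its relatives.
Tgfbr1: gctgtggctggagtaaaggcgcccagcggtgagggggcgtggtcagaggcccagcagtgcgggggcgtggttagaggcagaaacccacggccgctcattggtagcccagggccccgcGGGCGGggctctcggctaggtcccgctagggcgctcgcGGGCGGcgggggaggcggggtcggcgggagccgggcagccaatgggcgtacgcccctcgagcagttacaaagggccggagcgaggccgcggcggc
Tgfbr2: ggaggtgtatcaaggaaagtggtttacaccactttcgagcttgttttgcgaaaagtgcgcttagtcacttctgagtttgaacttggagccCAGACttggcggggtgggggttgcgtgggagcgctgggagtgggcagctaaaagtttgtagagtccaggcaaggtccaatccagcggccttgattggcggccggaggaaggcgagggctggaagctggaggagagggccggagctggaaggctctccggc
Eng: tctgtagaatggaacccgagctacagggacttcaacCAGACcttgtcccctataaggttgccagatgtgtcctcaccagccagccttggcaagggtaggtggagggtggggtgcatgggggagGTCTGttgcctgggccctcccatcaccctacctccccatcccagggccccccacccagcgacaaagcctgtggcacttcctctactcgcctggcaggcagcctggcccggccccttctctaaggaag
The SMAD box had 0 matches for Tgfbr1, 1 for Tgfbr2 and 2 for Eng, and the GC box had 2, 0 and 0. Of 32851 RefSeq promoter windows of this length, 42.2% held the SMAD box and 32.7% the GC box, so a match in a single window is common. Of the 10 genes, 7 had an entry in the promoter table, with 12 windows between them. The SMAD box was in 6 of these 12 windows, from 4 of the 7 genes, and the GC box in 6 windows, from 5 genes. The shares over all promoters are per window, so they stand beside the counts of windows and not of genes. A match describes letters only.

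Per length, the receptors were the most abundant of the 10 transcripts and the SMAD genes the least. Levels between genes are given as TPM (abundance scaled for transcript length and library size) recomputed without 12 genes at satellite repeats, because those genes took 38.57% to 65.32% of the reads of a library. Tgfbr1 stood at 210 ± 57.3 TPM and Tgfbr2 at 181 ± 60.0 (SD, n = 14). These were above 98.1% and 97.8% of the other-than-satellite genes of the deposited table, with or without reads. Nrros stood at 118 ± 54.3 TPM, Tgif1 at 80.6 ± 21.1 and Ski at 61.6 ± 14. Tgfb1 stood at 38.3 ± 17.1 TPM and Smad3 at 36.2 ± 17.2. Smad2 stood at 23.2 ± 18.1 TPM and Smad7 at 15.5 ± 8.7. Smad4, the partner shared by the signal-carrying SMAD proteins, was at 14.9 ± 7.95, above 77.5% of the same genes with or without reads. Most neighbours in this order did not differ beyond their spread. Tgfbr1 was above Tgfbr2 in 8 of 14 libraries, Tgfb1 above Smad3 in 7 and Smad7 above Smad4 in 7, whereas Ski was above Tgfb1 in 13 of 14.

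**Figure D1:**
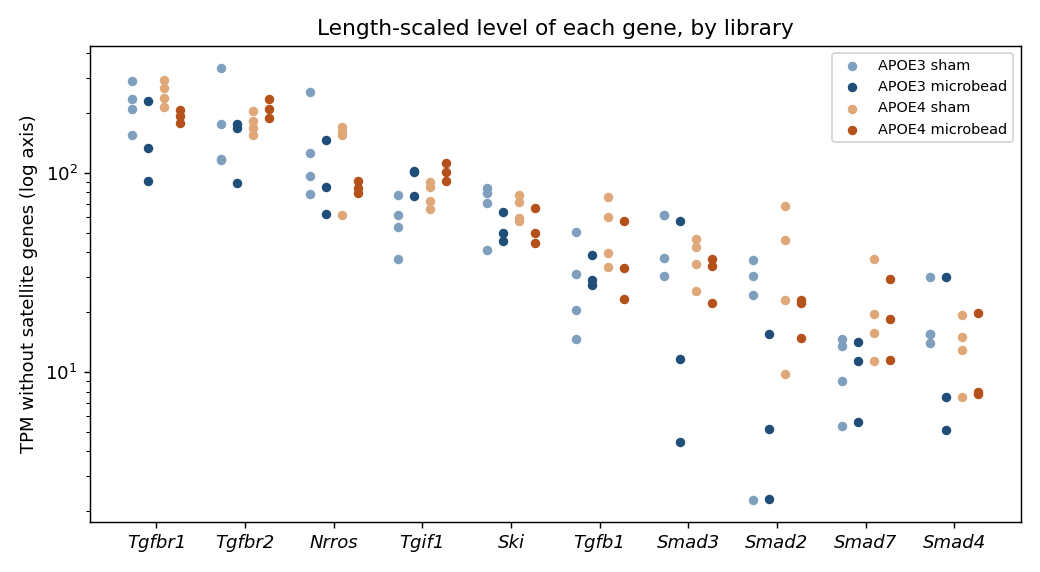
Length-scaled level (TPM without the satellite genes, log axis) of the 10 genes in each of the 14 libraries, ordered by mean. Points are libraries, colored by group. Tgfbr1 and Tgfbr2 overlap at the top, and Smad2, Smad7 and Smad4 overlap at the bottom.

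Depth was low. Libraries held 226122 to 446728 reads outside the satellite genes. Over all 14 libraries Tgfbr2 had 2950 reads, Tgfbr1 1978, Ski 895, Nrros 861, Smad3 442, Tgif1 354, Tgfb1 213, Smad2 177, Smad7 152 and Smad4 113. Smad4 had as few as 3 reads in a library and Smad2 as few as 2, so a difference in these genes had to be large to be detectable. Within a gene, levels below are TMM-normalised CPM (read counts scaled to a common library size), given as mean ± SD over the libraries of a group.

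Markers of other cells were counted beside the pathway. The 10 microglial markers summed to 15000 ± 1970 CPM after sham and 8800 ± 2360 after microbead injection in APOE3, and to 13700 and 14300 in APOE4. The 15 markers of monocytes and cells derived from them summed to 93.2 ± 22.2 CPM in APOE3 sham and to 1640, 831 and 335 in the APOE3 microbead libraries 1, 2 and 3. They summed to 74.9 ± 9.91 CPM in APOE4 sham and to 64.4, 249 and 104 in the APOE4 microbead libraries. Without Fn1, which is also a TGF-beta target, the other 14 gave 33.6 to 98.4 CPM in APOE3 sham and 317, 496 and 98.1 in APOE3 microbead. Of the defining monocyte markers, the chemokine receptor Ccr2 stood at 12.1, 71.9, 2.78 and 11.5 CPM in APOE3 sham, APOE3 microbead, APOE4 sham and APOE4 microbead. Ly6c2, whose protein was sorted against, stood at 2.22, 2.09, 2.55 and 0.576 CPM in the same order, and none of the 15 was at 0 in all libraries. On the sum without Fn1, APOE3 microbead 1 and 2 lay above every other library, and library 3 lay within the APOE3 sham range and below APOE4 microbead 2 at 110. The 5 B cell markers summed to 286 to 316 CPM in APOE3 sham and 106 to 144 in APOE3 microbead, and to 246 to 336 and 163 to 247 in APOE4 sham and microbead. Most of that sum was Ighm, with 1714 reads over the 14 libraries, while the defining marker Cd79a had 4. The part of these values in the results on the APOE3 microbead group was not tested, apart from the values given below without libraries 1 and 2. In such bulk samples fewer cells of a type and less RNA per cell cannot be told apart.

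The first comparison asks how microglia of APOE3 retinas responded to the microbeads. By the edgeR quasi-likelihood test, with p-values adjusted over all genes tested by the Benjamini-Hochberg method, 0 of the 10 passed an adjusted p of 0.05, against 5.15% of all genes tested. At an unadjusted p under 0.05 there were 5 of 10 (Tgfbr1, Tgif1, Smad3, Smad2 and Nrros), against 14.7% of all genes. DESeq2 called 1 of the 10, Tgfbr1 (adjusted p = 0.0335), and limma-voom called 0. The median log2 fold change was -0.36 over the 10 genes and -0.02 over all genes, with 7 of the 10 below 0. The microbead and sham libraries did not overlap in CPM for 2 of the 10, Tgfbr1 and Tgif1, against 13.1% of all genes.

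**Figure D2:**
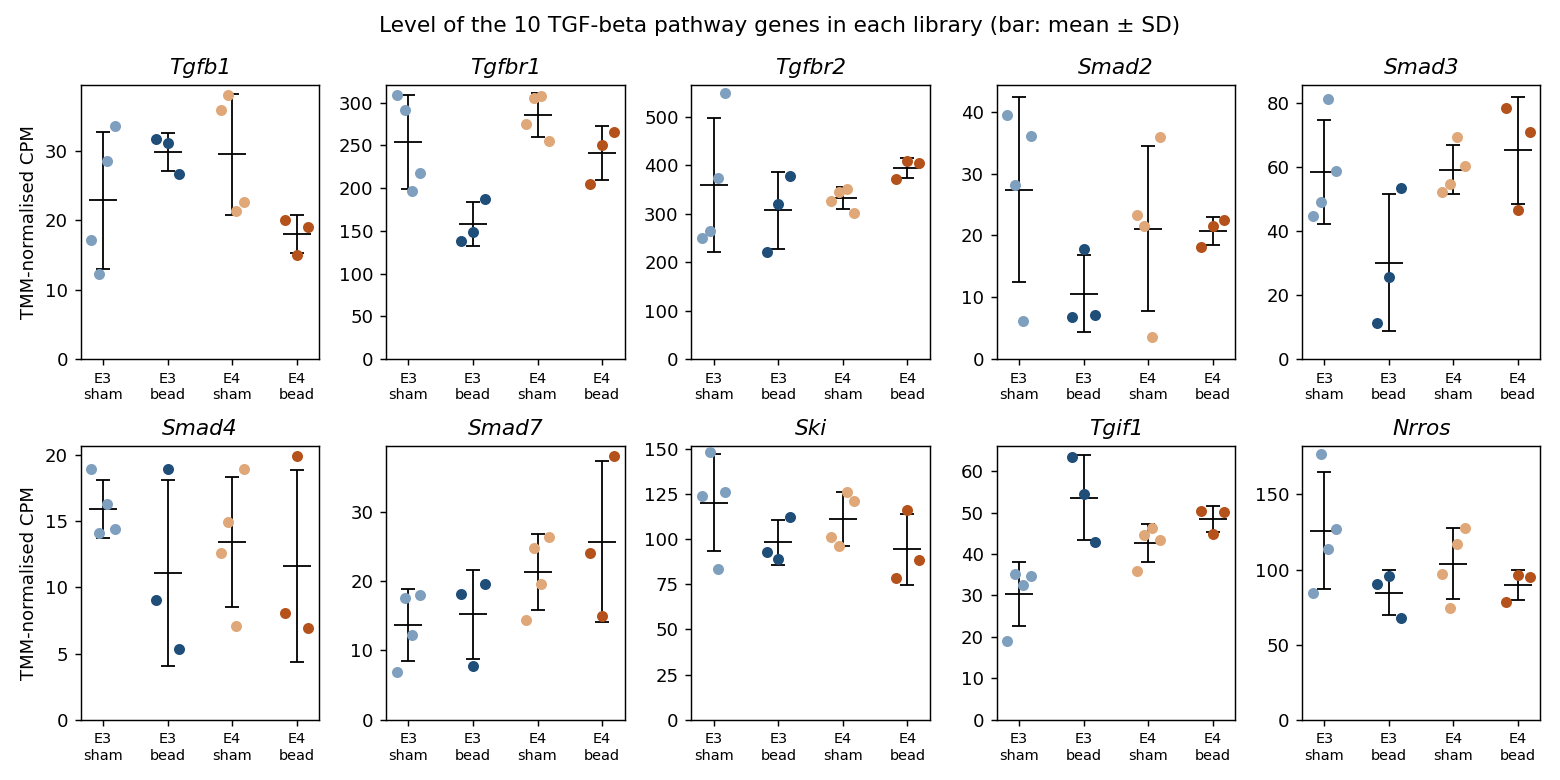
Level (TMM-normalised CPM, linear axes from 0) of each of the 10 genes in the 14 libraries, with the mean and SD of each group; bead stands for microbead. In APOE3 the microbead points of Tgfbr1 lie below all sham points and those of Tgif1 above them.

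Among the receptors, Tgfbr1 (ENSMUSG00000007613, chromosome 4, 47353222 to 47414931) was at 309, 292, 197 and 218 CPM in the APOE3 sham libraries and at 138, 149 and 187 in the APOE3 microbead libraries. The highest microbead library was thus just under the lowest sham library in CPM. In TPM without the satellite genes the groups overlapped, at 291, 236, 155 and 210 in sham and 91.5, 134 and 229 in microbead libraries. The fitted log2 fold change was -0.68 ± 0.21 (SE), with an adjusted p of 0.0507 that narrowly missed the threshold. Its direction held in all 25 alternative fits, from -0.82 to -0.43, and 5 of them called it. Leaving out APOE3 microbead 3, the library with the most Tgfbr1 in its group, gave -0.82 with an adjusted p of 0.029. Leaving out APOE3 sham 3 or sham 4 gave adjusted p-values of 0.0259 and 0.0443. Without both APOE3 microbead 1 and 2, the libraries with the highest monocyte marker sums, the estimate was -0.44 with an adjusted p of 0.755 from the 1 library left.

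In APOE4, Tgfbr1 was at 275, 306, 308 and 255 CPM after sham and at 205, 251 and 266 after microbead injection. The groups overlapped in CPM, and the log2 fold change was -0.25 ± 0.20 (adjusted p = 0.921). In TPM without the satellite genes they did not, at 238, 267, 294 and 216 after sham and 179, 194 and 208 after microbeads. On log2 TPM plus 1 the log2 fold change was -0.71 in APOE4 and -0.43 in APOE3, and neither passed. The difference between the genotypes in this response was 0.44 ± 0.29 (adjusted p = 0.782) and did not pass. Over 24 alternative fits it ran from -0.28 to 0.58. Averaged over both genotypes, the microbead effect on Tgfbr1 was -0.46 ± 0.14 with an adjusted p of 0.0652, and DESeq2 gave an adjusted p of 0.0463.

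Tgfbr2 (ENSMUSG00000032440, chromosome 9, 116084293 to 116175360), which encodes the receptor that binds the ligand first, showed no such pattern. It was at 251, 264, 374 and 550 CPM in APOE3 sham and at 222, 321 and 378 in APOE3 microbead, and the groups overlapped (log2 fold change -0.23 ± 0.23, adjusted p = 0.763). In APOE4 it was at 327, 346, 352 and 302 CPM after sham and at 372, 409 and 405 after microbead injection. There every microbead library lay above every sham library in CPM, but the fitted difference was 0.25 ± 0.23 (adjusted p = 0.935). In TPM without the satellite genes APOE4 microbead 1 at 190 was below APOE4 sham 3 at 206.

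The ligand gene Tgfb1 (ENSMUSG00000002603, chromosome 7, 25687002 to 25705077) pointed in opposite directions in the genotypes without passing in either. It was at 17.2, 12.3, 28.5 and 33.6 CPM in APOE3 sham and at 31.7, 31.2 and 26.7 in APOE3 microbead. The APOE3 groups overlapped, with a log2 fold change of 0.36 ± 0.37 (adjusted p = 0.773). It was at 35.9, 38.1, 21.3 and 22.6 CPM in APOE4 sham and at 20.1, 15 and 19.0 in APOE4 microbead. The APOE4 microbead libraries lay below all APOE4 sham libraries in CPM, with a log2 fold change of -0.71 ± 0.40 (adjusted p = 0.834). In TPM without the satellite genes APOE4 microbead 2 at 57.8 was above APOE4 sham 1 at 39.8 and sham 3 at 33.8. The test of the difference between these effects gave -1.07 ± 0.54 (adjusted p = 0.627).

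Nrros (ENSMUSG00000052384, chromosome 16, 32142785 to 32165594), whose product holds latent TGF-beta on the microglial surface, was at 84.2, 177, 114 and 127 CPM in APOE3 sham and at 90.5, 95.8 and 67.7 in APOE3 microbead. The groups overlapped through the lowest sham library, and the log2 fold change was -0.56 ± 0.25 (adjusted p = 0.263). In APOE4 it was at 96.9, 74.5, 117 and 128 CPM after sham and at 78.5, 96.4 and 95.1 after microbead injection, a log2 fold change of -0.21 ± 0.25 (adjusted p = 0.955).

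Of the SMAD proteins that receptors activate, Smad3 (ENSMUSG00000032402, chromosome 9, 63646767 to 63757994) was at 44.7, 49.2, 81.3 and 58.8 CPM in APOE3 sham and at 11.3, 25.6 and 53.5 in APOE3 microbead. Libraries 1 and 2 of the microbead group were below every sham library of either genotype and library 3 was not. The log2 fold change was -0.93 ± 0.34 (adjusted p = 0.14). Library 3 decided the call. Without it the estimate was -1.53 and passed with an adjusted p of 0.0104, and without both other microbead libraries it was -0.12 (adjusted p = 0.987). In APOE4, Smad3 was at 52.1, 54.7, 69.4 and 60.4 CPM after sham and at 78.5, 46.5 and 70.9 after microbead injection (log2 fold change 0.14 ± 0.32, adjusted p = 0.991).

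Smad2 (ENSMUSG00000024563, chromosome 18) had the lowest estimate of the 10 genes in APOE3 and also a wide spread. It was at 39.5, 28.1, 6.1 and 36.0 CPM in APOE3 sham and at 6.79, 17.8 and 7.13 in APOE3 microbead, with 1 sham library below all microbead libraries. The log2 fold change was -1.28 ± 0.56 (adjusted p = 0.261). In APOE4 it was at 23.3, 21.5, 3.56 and 35.9 CPM after sham and at 18.1, 21.6 and 22.5 after microbead injection, a log2 fold change of -0.01 ± 0.55 (adjusted p = 0.998). Smad4 (ENSMUSG00000024515, chromosome 18) was at 15.9 ± 2.21 CPM after sham and 11.1 ± 7.02 after microbead injection in APOE3, and at 13.4 ± 4.91 and 11.6 ± 7.22 in APOE4. Its groups overlapped in every comparison, and its log2 fold change after microbeads was -0.42 ± 0.53 in APOE3 and -0.18 ± 0.55 in APOE4 (adjusted p = 0.825 and 0.994).

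Of the inhibitors, Tgif1 (ENSMUSG00000047407, chromosome 17, 70844205 to 70853546), a homeodomain protein that represses SMAD targets, was at 18.9, 35.1, 32.5 and 34.8 CPM in APOE3 sham and at 63.4, 54.6 and 42.8 in APOE3 microbead. All microbead libraries lay above all sham libraries in CPM, with a log2 fold change of 0.80 ± 0.28 (adjusted p = 0.105). In TPM without the satellite genes APOE3 sham 2 at 78.0 was above APOE3 microbead 3 at 76.5. The estimate was above 0 in all 25 alternatives, from 0.49 to 0.94, and none called it. In APOE4 it was at 35.9, 44.7, 46.2 and 43.4 CPM after sham and at 50.3, 44.9 and 50.1 after microbead injection, a log2 fold change of 0.18 ± 0.28 (adjusted p = 0.971). The interaction was -0.62 ± 0.40 (adjusted p = 0.76).

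Ski (ENSMUSG00000029050, chromosome 4, 155154075 to 155222592), a corepressor that binds SMAD complexes, was at 120 ± 26.8, 98.1 ± 12.5, 111 ± 14.9 and 94.3 ± 19.7 CPM in APOE3 sham, APOE3 microbead, APOE4 sham and APOE4 microbead. Its log2 fold changes after microbeads were -0.30 ± 0.23 and -0.23 ± 0.23 in APOE3 and APOE4 (adjusted p = 0.635 and 0.944). Smad7 (ENSMUSG00000025880, chromosome 18), which blocks the activated receptor and is itself a target of the pathway, was at 13.7 ± 5.24, 15.2 ± 6.43, 21.3 ± 5.47 and 25.7 ± 11.6 CPM in the same order. Its log2 fold changes were 0.06 ± 0.49 and 0.27 ± 0.44 (adjusted p = 0.988 and 0.975). With an SE near 0.5, a change of Smad7, Smad4 or Smad2 by less than about 1 on the log2 scale lies within 2 SE and was not detectable at this depth. Larger changes could be missed as well, since Smad2 in APOE3, at -1.28 ± 0.56, lay beyond 2 SE and did not pass.

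**Figure D3:**
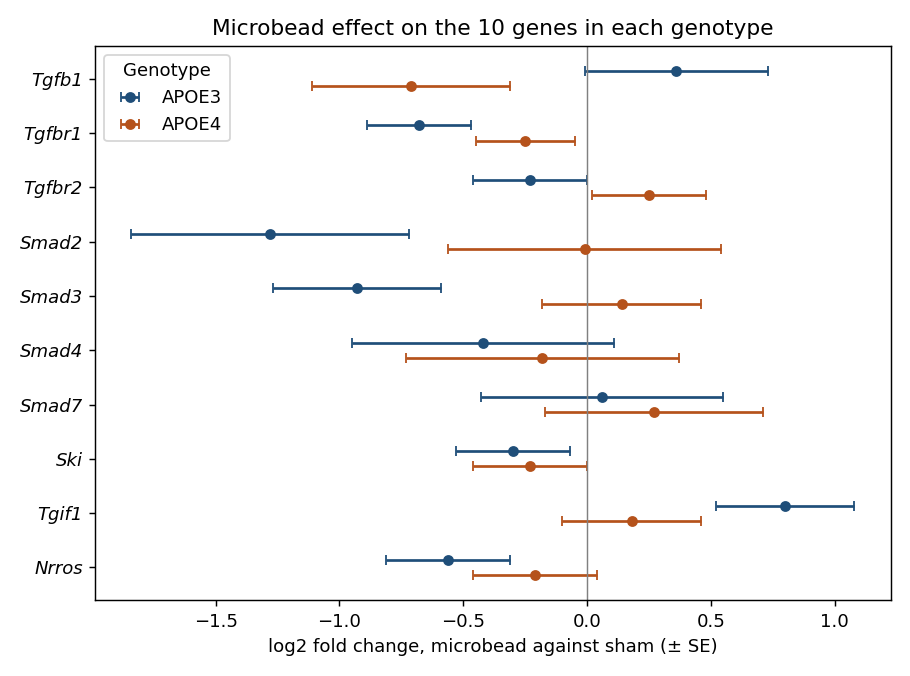
Log2 fold change of microbead against sham (bars, SE) for the 10 genes, in APOE3 and in APOE4. No estimate passed the adjusted threshold; in APOE3 those of Smad2, Smad3, Tgfbr1 and Nrros lie below 0 and that of Tgif1 above 0 by more than 2 SE.

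In APOE4 as a whole, 0 of the 10 genes passed the adjusted threshold against 0.197% of all genes, and 0 of 10 had an unadjusted p under 0.05 against 6.5%. DESeq2 and limma-voom also called 0. Sham and microbead libraries did not overlap in CPM for Tgfb1 and Tgfbr2, 2 of 10, against 9.11% of all genes. The median log2 fold change of the 10 was -0.09. Averaged over the genotypes, 0 of 10 passed against 4.64%, and 3 of 10 (Tgfbr1, Tgif1 and Nrros) had an unadjusted p under 0.05 against 13.9%. Tgif1 stood at 0.49 ± 0.20 (adjusted p = 0.202) and Nrros at -0.39 ± 0.18 (adjusted p = 0.308) in that mean, and DESeq2 called 1 gene, Tgfbr1, where limma-voom called 0.

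For the genotype by treatment interaction 0 of the 10 passed, against 0.092% of all genes, and DESeq2 and limma-voom called 0 too. The only one with an unadjusted p under 0.05 was Smad3, at 1.06 ± 0.47 (adjusted p = 0.532), where 8.17% of all genes had such a p. The 2 microbead effects did not share samples, and the interaction is the test of their difference. Smad2 was at 1.27 ± 0.78 (adjusted p = 0.745) and the other estimates lay closer to 0 than those of Smad2, Tgfb1 and Smad3.

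The genotypes were then compared within each treatment. Among sham retinas 0 of the 10 genes passed against 0.0131% of all genes, 0 of 10 had an unadjusted p under 0.05 against 4.4%, and DESeq2 and limma-voom called 0. The APOE4 and APOE3 sham libraries did not overlap in CPM for Tgif1 alone, 1 of 10 against 3.54% of all genes. Its 4 APOE4 libraries started at 35.9 CPM where the 4 APOE3 libraries ended at 35.1, and the log2 difference was 0.48 ± 0.27 (adjusted p = 0.962). In TPM without the satellite genes APOE3 sham 2 at 78.0 was above APOE4 sham 1 at 72.5 and sham 4 at 65.8.

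Among microbead retinas 0 of the 10 passed by edgeR against 0.579% of all genes, and DESeq2 and limma-voom called 0. At an unadjusted p under 0.05 were 2 of 10, Smad3 and Tgfbr1, against 9.74%. Smad3 was higher in APOE4 by 1.08 ± 0.36 on the log2 scale (adjusted p = 0.229), and by 1.70 (adjusted p = 0.0203) without APOE3 microbead 3. Tgfbr1 was at 138 to 187 CPM in APOE3 and at 205 to 266 in APOE4, without overlap, a log2 difference of 0.61 ± 0.22 (adjusted p = 0.278). Smad2 was likewise higher in every APOE4 library (0.85 ± 0.62, adjusted p = 0.76) and Tgfb1 lower in every one (-0.73 ± 0.42, adjusted p = 0.611). These 3 of 10 genes without overlap in CPM stand against 14.5% of all genes. In TPM without the satellite genes all 3 overlapped. Tgfb1 was there at 23.4, 57.8 and 33.2 in APOE4 and at 29.1, 38.9 and 27.3 in APOE3. Over 25 alternative fits the difference ran from -0.81 to 0.04 for Tgfb1 and from 0.15 to 0.75 for Tgfbr1. The microbead comparison shares its libraries with the effects in each genotype given above.

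The wider pathway was read from role lists of 84 genes, of which 83 were in the annotation and 48 had enough reads to be tested. In APOE3, 5 of the 48 rose after microbeads (3.54% of all genes rose) and 0 fell (1.62% of all genes fell). In APOE4, and in the interaction, 0 of 48 passed, against 0.197% and 0.092% of all genes. In the mean of both genotypes 3 of 48 rose, Cdkn1a, Fn1 and Tgfbi, where 4.64% of all genes passed in either direction. Between the genotypes 0 of 48 passed in sham or in microbead retinas, against 0.0131% and 0.579% of all genes.

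Among ligands, Tgfb1 was the only 1 of 3 tested. Tgfb2 and Tgfb3, the other TGF-beta ligands, had 0 to 6 reads over the libraries of any group. Of genes for storage and activation of the latent ligand, 8 of 17 were tested and 1 rose in APOE3, the membrane protease gene Mmp14. Mmp14 was at 15.5, 21.1, 22.4 and 28.8 CPM in APOE3 sham and at 72.4, 69.0 and 37.4 in APOE3 microbead (log2 fold change 1.42 ± 0.41, adjusted p = 0.0447). The call was lost in 14 of 25 alternatives, among them limma-voom (adjusted p = 0.0881), leaving out APOE3 sham 1, 2 or 3, APOE3 microbead 1 or 2, APOE4 sham 1 or 4, or APOE4 microbead 1, and leaving out both APOE3 microbead 1 and 2 (0.75, adjusted p = 0.842). The integrin genes Itgb3 (-1.05 ± 0.33, adjusted p = 0.0599) and Itgav (-0.75 ± 0.32, adjusted p = 0.243), which encode subunits of an integrin that binds latent TGF-beta, did not pass.

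Of the receptors, 6 of 11 were tested and 0 passed. Eng was at 73.9 ± 17.3 CPM in APOE3 sham and 48.1 ± 5.25 in APOE3 microbead (-0.61 ± 0.25, adjusted p = 0.213), and at 88.8 ± 13.9 and 67.9 ± 10.9 in APOE4 sham and microbead (-0.38 ± 0.24, adjusted p = 0.884). Endoglin is also typical of endothelium, and the 7 markers of endothelium and pericytes summed to 47.8, 45.9, 40.3 and 37.6 CPM in APOE3 sham, APOE3 microbead, APOE4 sham and APOE4 microbead. Most of that sum was Pecam1, with 227 reads over the 14 libraries, while Cdh5 had 11 and Cldn5 had 0. Acvrl1, a type I receptor that works with endoglin, was at 0.50 ± 0.32 in APOE3 (adjusted p = 0.536), and Bmpr2, a receptor for bone morphogenetic proteins, at -0.38 ± 0.35 (adjusted p = 0.734). Of the SMAD genes 5 of 8 were tested, and besides the 4 already given this left Smad5, which carries bone morphogenetic protein signals (-0.43 ± 0.52, adjusted p = 0.816). Of corepressors and other inhibitors 13 of 16 were tested and 0 passed. After Tgif1 the lowest p-values there were those of the SMAD phosphatase gene Ppm1a (-1.05 ± 0.55, adjusted p = 0.402), the ubiquitin ligase gene Smurf2 (-0.92 ± 0.54, adjusted p = 0.477) and its relative Wwp2 (0.42 ± 0.27, adjusted p = 0.528). Of partners and adaptors 7 of 10 were tested and 0 passed, with Sp1 at -0.47 ± 0.45 (adjusted p = 0.75), the coactivator gene Ep300 at 0.13 ± 0.23 (adjusted p = 0.896) and the adaptor gene Traf6 at 0.21 ± 0.43 (adjusted p = 0.915).

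**Figure D4:**
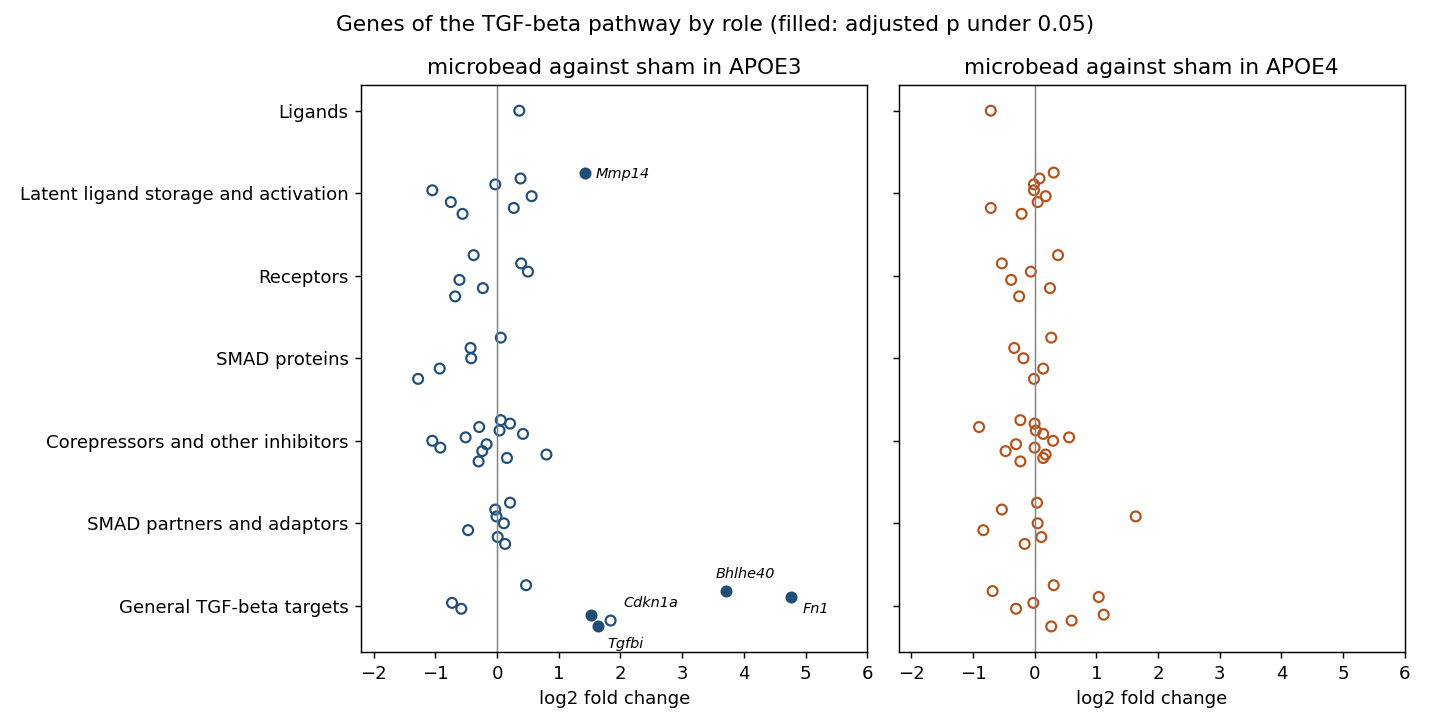
Log2 fold change of microbead against sham for the 48 tested genes of the pathway by role, in APOE3 (left) and APOE4 (right). Each circle is a gene, filled where the adjusted p was under 0.05; the filled ones are Mmp14 and the target genes Bhlhe40, Cdkn1a, Fn1 and Tgfbi in APOE3, and none is filled in APOE4.

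General target genes of TGF-beta, chosen for responses seen across many cell types, rose as far as they passed. Of 19 listed 8 were tested, and 4 rose in APOE3 and 0 fell, against 3.54% and 1.62% of all genes, with a median log2 fold change of 1.58 against -0.02 over all genes. Fn1, which encodes the matrix protein fibronectin, was at 13.7, 14.1, 24.4 and 36.0 CPM in APOE3 sham and at 1320, 335 and 237 in APOE3 microbead (4.77 ± 0.88, adjusted p = 0.00976). Every microbead library was far above every sham library. Tgfbi, which encodes a secreted matrix protein induced by TGF-beta, was at 84.2, 54.5, 67.1 and 86.4 CPM and at 290, 312 and 85.6 (1.64 ± 0.36, adjusted p = 0.00999). Here the third microbead library lay within the sham range. Cdkn1a, which encodes the cell cycle inhibitor p21, was at 12.0, 21.1, 26.4 and 27.6 CPM and at 76.9, 46.8 and 69.5 (1.52 ± 0.36, adjusted p = 0.00847). Bhlhe40, a transcription factor gene, had 6 reads over the 4 sham libraries and 61 over the 3 microbead libraries, or 2.06 ± 2.44 and 33.3 ± 6.27 CPM (3.71 ± 0.81, adjusted p = 0.00428). Id2, an inhibitor of such factors, was at 19.4 ± 11.7 and 68.2 ± 31.7 CPM and did not pass (1.84 ± 0.53, adjusted p = 0.0556).

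The 4 genes differed in how they stood to the monocyte markers over the APOE3 microbead libraries. Tgfbi was high in libraries 1 and 2, where those markers were high, whereas Bhlhe40 was at 33.9, 26.7 and 39.2 CPM in libraries 1, 2 and 3, and Cdkn1a, given above, was also not lowest in library 3. Fn1 is itself 1 of the 15 monocyte markers. Without both APOE3 microbead 1 and 2 the list had 0 called of 10 tested and a median of 1.25. Without them Tgfbi was at 0.22 (adjusted p = 0.96), whereas Cdkn1a was at 1.65 (adjusted p = 0.187), Fn1 at 3.37 (adjusted p = 0.266) and Bhlhe40 at 3.97 (adjusted p = 0.176), from the 1 library left. Without APOE3 microbead 1 alone, Cdkn1a (adjusted p = 0.0517) and Tgfbi (0.0534) missed the threshold, as did Tgfbi without APOE3 microbead 2 (0.0673). Of 25 alternatives the call was lost in 3 for Fn1, 3 for Bhlhe40, 6 for Cdkn1a and 5 for Tgfbi. On log2 TPM plus 0.1 all 4 were lost, with adjusted p-values of 0.177 for Fn1, 0.316 for Bhlhe40, 0.55 for Cdkn1a and 0.608 for Tgfbi. On log2 TPM plus 1 Bhlhe40 (0.0743), Cdkn1a (0.465) and Tgfbi (0.558) were lost, and Cdkn1a also with library totals (0.0702) and length offsets (0.0621). In the mean of both genotypes the 3 calls became 1 without any of APOE3 sham 1, 2 or 3, APOE4 sham 1, 2 or 3, or APOE4 microbead 2, and 2 without APOE3 sham 4, APOE4 sham 4, APOE3 microbead 2 or APOE4 microbead 1. In APOE4 the median of the 8 was 0.29 with 0 called. There Fn1 was at 6.04, 140 and 24.2 CPM after microbeads, high only in the library with the highest monocyte marker sum of its group, and Cdkn1a was at 18.1, 18.3 and 36.3 (1.12 ± 0.44, adjusted p = 0.562).

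Of the microglial genes that depend on TGF-beta, those that passed in APOE3 were lower after microbeads. All 27 of the list in the annotation were tested, and in APOE3 11 fell (1.62% of all genes fell) and 0 rose, with a median log2 fold change of -0.69. P2ry12, the purinergic receptor gene typical of resting microglia, was at 833, 907, 789 and 1060 CPM in APOE3 sham and at 167, 212 and 383 in APOE3 microbead (adjusted p = 6.03e-06). Serpine2, a protease inhibitor gene, was at 189 to 309 CPM in sham and at 61.1, 51.2 and 90.9 in microbead libraries (adjusted p = 2.23e-05). Gpr34, a lipid receptor gene, was at 372 to 496 CPM in sham and at 38.5, 126 and 143 (adjusted p = 2.29e-05), and P2ry13, a relative of P2ry12, at 337 to 511 and at 134, 169 and 135 (adjusted p = 8.13e-05). The list is not independent of the microglial markers, since P2ry12, Tmem119, Sall1, Siglech, Cx3cr1, Csf1r and Fcrls, among others, are in both. Without both APOE3 microbead 1 and 2 the median log2 fold change of the list was -0.32 where all libraries gave -0.69, from the 1 microbead library left.

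In APOE4 the median of the same 27 genes was -0.01 and 0 passed by edgeR, 3 had an unadjusted p under 0.05, DESeq2 called 1 lower and limma-voom 0. P2ry12 there was at 677, 790, 838 and 757 CPM after sham and at 575, 550 and 584 after microbead injection. In the mean of both genotypes 10 fell, where 4.64% of all genes passed in either direction, led by P2ry12 and by Cst3, the gene of a secreted protease inhibitor (-0.95 ± 0.15, adjusted p = 0.000219). The interaction called 2 of 27, Serpine2 at 1.91 ± 0.33 (adjusted p = 0.0155) and Gpr34 at 1.80 ± 0.36 (adjusted p = 0.0367), while DESeq2 called 10 and limma-voom 0, and 0.092% of all genes passed. Within microbead retinas 5 were higher in APOE4 than in APOE3, against 0.224% of all genes. They were Serpine2 (1.74, adjusted p = 0.000816), Siglech, a sialic acid receptor gene (1.17 ± 0.20, adjusted p = 0.00414), P2ry12, Sall1 and Gpr34. Without both APOE3 microbead 1 and 2, 0 of the 27 passed in the interaction and 0 within microbead retinas. Single libraries moved these counts. Without APOE3 microbead 3 they were 6 and 11, without APOE4 microbead 1 they were 0 and 2, and without APOE4 microbead 3 they were 1 and 2. Within microbead retinas the count was 3 without APOE3 microbead 1 and 2 without APOE3 microbead 2. In the interaction it was 0 without APOE4 sham 1 or 2, and 1 without APOE3 sham 1, 2 or 4, APOE4 sham 3 or 4, or APOE4 microbead 2. Among sham retinas 0 passed, 5 had an unadjusted p under 0.05 and DESeq2 and limma-voom called 0.

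**Figure D5:**
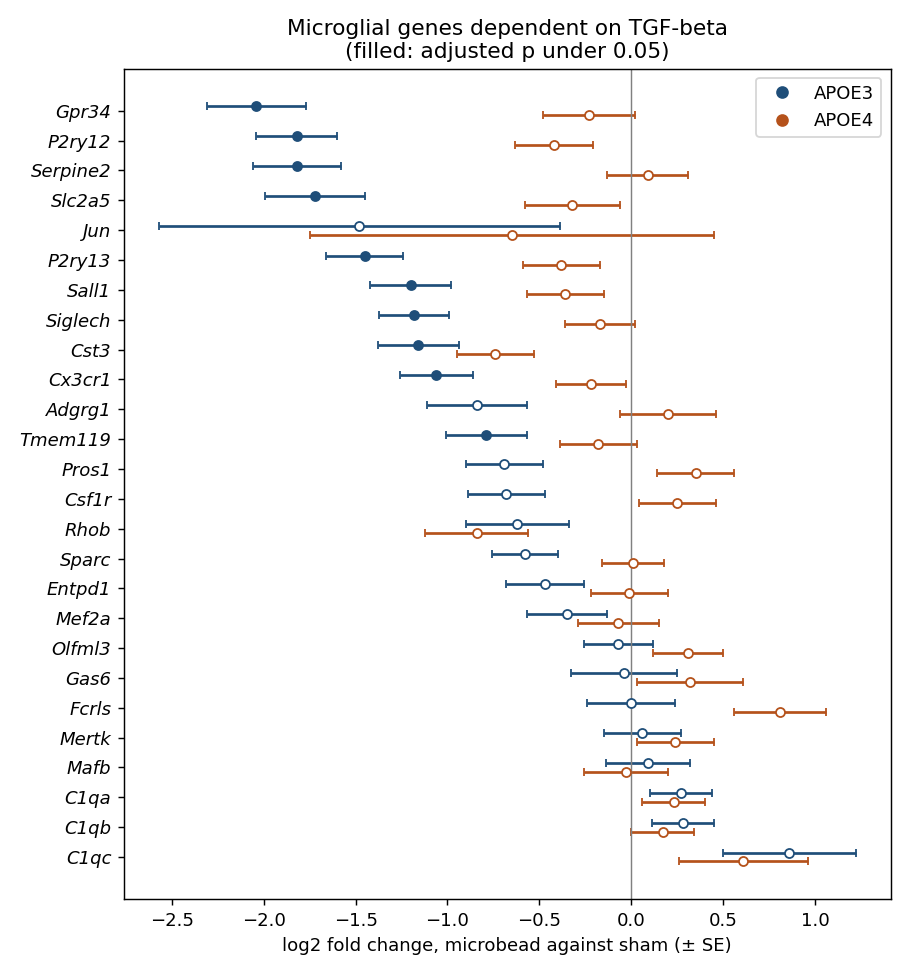
Log2 fold change of microbead against sham (bars, SE) for 26 of the 27 TGF-beta-dependent microglial genes, in APOE3 and APOE4; filled circles have an adjusted p under 0.05. The 10 filled circles are all in APOE3 and all below 0, and no APOE4 estimate is filled.

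The genes whose levels ran closest to the ligand and its receptors were found by Pearson's r of log2 CPM over the 14 libraries. It is given as a description, since points share group, depth and composition. Pseudogenes and genes with a Gm or Rik symbol were left out of the search. For Tgfbr1 they were Eng (r = 0.924), Smap2 (0.917), Cdh23 (0.903), Sult1a1 (0.903) and Csmd3 (0.895). For Tgfbr2 they were Bin2 (0.895), Herpud1 (0.877), Ppp2r3d (0.855), Abhd12 (0.846) and Dnajc7 (0.818). For Tgfb1 they were Ssu72 (0.813), Hsp90aa1 (0.806), Clcn6 (0.803), the photoreceptor gene Guca1a (0.787) and Gpx4 (0.784). No gene was named for more than 1 of them. The 10 rod markers summed to 258 to 2030 CPM in APOE3 sham, with means of 1010, 447, 769 and 521 in APOE3 sham, APOE3 microbead, APOE4 sham and APOE4 microbead.

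Reads of some of the 10 genes fell largely on transcripts that code for no protein, as far as the estimated split between transcripts goes. For Tgfb1, 69.5% of reads were given to Tgfb1-204, annotated as a retained intron, and 26.1% to the coding transcript Tgfb1-201. For Ski, 71.0% went to Ski-203, annotated as a processed transcript, and 24.6% to the coding Ski-202. Tgfbr1-201 took 87.0% of the reads of Tgfbr1, Smad3-201 97.5% of those of Smad3 and Smad7-201 99.3% of those of Smad7. Those of Tgfbr2 were split between Tgfbr2-202 with 52.7% and Tgfbr2-201 with 47.3%. A level of Tgfb1 or Ski given above is therefore the sum over coding and other transcripts.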

How the data were processed

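RNA from sorted retinal microglia was sequenced as 14 libraries. The submitters' processing notes name Salmon 1.4.0, R 4.0.3, DESeq2 1.30.1 and the build mm10. The deposited files hold estimated counts per transcript with effective lengths, and the authors' series table holds TPM per gene. Of 116945 transcripts, 115945 were assigned to 35449 genes of GENCODE M21 (GRCm38), and 1000 were left out. Counts were summed per gene and rounded. Libraries held 450981 to 727264 reads on genes. Genes were kept by filterByExpr per group (minimum count 10, minimum total 15), which left 7605. Groups were compared by the edgeR 4.0.16 quasi-likelihood test (R 4.3.3, robust, TMM) with 4 group means over all libraries, two-sided, and Benjamini-Hochberg adjustment over all genes tested; the adjusted p had to be under 0.05. The common biological coefficient of variation was 0.275. The SE was derived from the F statistic. The script was tested on simulated counts of 7009 genes, with changes set in the APOE3 microbead group. Of 93 genes changed by 1 on the log2 scale 21.5% passed, so most such changes were missed. Of 93 changed by 2, 84.9% passed, and 5 unchanged genes passed. Alternatives used DESeq2 1.42.0, limma 3.58.1 (voom, and trend on log2 TPM plus 1 or 0.1), other scalings and filters, and libraries left out. No library was a duplicate of another of its group, and pairs from different groups were not checked. No set test was made.

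Besides the 10 genes, those named were every other pathway gene that passed in any comparison and up to 3 per role by smallest unadjusted p in APOE3. They were joined by up to 4 TGF-beta-dependent genes in APOE3 and 2 in other comparisons, and 5 nearest genes for the ligand and each receptor; Id2, Tgfb2 and Tgfb3 were added after their values were seen. The genes and lists were chosen with earlier results of these data known. Counts and medians of the TGF-beta-dependent list cover 27 genes, of which 1 is not reported here by itself.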

Additional observations from a re-analysis of the deposited data

Results flagged for a closer look

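Tgif1 in APOE3 sham had 1 library apart from the others. Library 1 stood at 18.9 CPM where the other 3 lay between 32.5 and 35.1, a gap larger than the critical share of the group's range. Chance gives such a gap in about 1 of 20 groups, and 20 sham groups of the 10 genes were looked at. Without that library the microbead effect on Tgif1 in APOE3 was 0.63 on the log2 scale (adjusted p = 0.302 by edgeR), against 0.80 with it.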

How the results depend on the processing

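None of the 10 genes passed in any of the 6 comparisons as reported. In APOE3, DESeq2 and leaving out the satellite genes (adjusted p = 0.048) each called 1 of the 10, Tgfbr1, and leaving out 1 library called 0 to 2, Tgfbr1 and Smad3. In the mean of both genotypes DESeq2 called 1, and leaving out 1 library 0 to 1. Within microbead retinas leaving out 1 library called 0 to 1, which was Smad3 without APOE3 microbead 3. All other alternatives, also without both APOE3 microbead 1 and 2 (chosen after the data were seen, which leaves 1 library assumed to vary like the rest), called 0 of the 10.

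Counts over all genes moved more, and the genes tested changed with several settings. In APOE3 the 392 genes became 149 with library totals, 222 with length offsets, 227 with only the libraries compared, 37 and 10 on log2 TPM plus 1 and plus 0.1, 37 without both APOE3 microbead 1 and 2, and 225 to 478 with 1 library left out (225 without APOE3 microbead 2). In APOE4 the 15 became 34 with DESeq2, 3 with library totals, 53 without a filter, 5 with length offsets, 44 with only the libraries compared, 3 and 4 on log2 TPM, 26 without both, and 2 to 17 with 1 left out. In the mean the 353 became 123 with library totals, 169 with length offsets, 23 and 3 on log2 TPM, 92 without both, and 240 to 410 with 1 left out. In the interaction the 7 became 57 with DESeq2, 0 with limma-voom, 2 with library totals, 29 without a filter, 0 with length offsets, 1 and 0 on log2 TPM, 1 without both, and 0 to 30 with 1 left out. In sham the 1 became 0 with limma-voom, library totals, length offsets, only the libraries compared, satellite genes left out and without both, 12 without a filter, 3 and 3 on log2 TPM, and 0 to 1 with 1 left out. Within microbead retinas the 44 became 73 with DESeq2, 14 with library totals, 111 without a filter, 24 with length offsets, 7 and 2 on log2 TPM, 2 without both, and 11 to 121 with 1 left out. The cause was not tested.

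Library totals and log2 TPM moved the median of all genes by -0.38 to 0.24, and on log2 TPM plus 1 the median of the 10 genes in the interaction was -0.29 where the reported fit gave 0.30. Tgfbr2 was on the other side of 0 in 2 of 25 alternatives in each genotype.

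With the replicate block, 293 genes were called in APOE3, 5 in APOE4, 200 in the mean, 3 in the interaction and 0 in sham, and 0 of the 10 genes in any. Of the target genes that rose, Fn1 missed the threshold with the block (4.90, adjusted p = 0.0523). Tgfbr1 in APOE3 was at -0.75 (adjusted p = 0.0701). After the group means were taken out, same-numbered libraries of different groups correlated between -0.144 and 0.099. Differently numbered ones correlated between -0.206 and 0.255, and 4 of 14 libraries correlated best with their own number. No pairing by number was seen, but such correlations between few shallow libraries cannot exclude it, and the labels do not say. Depth limits Smad2, Smad4, Smad7 and Tgfb1, with 113 to 213 reads each in all.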
